A study of Mus musculus with 16 samples.

Results

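The members described here are the genes that encode the subunits of oxidative phosphorylation, the 5 protein complexes (I to V) of the inner mitochondrial membrane, together with the assembly factors whose symbols carry the same prefixes. A gene was taken by its name in the table of counts (Nduf, Uqcr, Cox4i, Cox5, Cox6, Cox7, Cox8, Atp5, mt-Nd, mt-Co, mt-Cytb or mt-Atp at the start of the symbol, or Sdha, Sdhb, Sdhc, Sdhd or Cyc1), with pseudogene names ending in -ps left out and with a mean of at least 5 CPM (counts of a gene scaled to a common library size) over the 16 libraries. This gave 92 of the 50508 genes of the table. They comprised 85 nuclear and 7 mitochondrially encoded genes. The nuclear genes were 36 subunits of complex I, 4 of complex II, 9 of complex III, 13 of complex IV and 14 of complex V, with 9 assembly factors (8 Ndufaf genes and Atp5sl). The mitochondrial genes were mt-Nd1, mt-Nd2, mt-Nd4, mt-Nd5 and mt-Nd6 of complex I, mt-Cytb of complex III and mt-Co1 of complex IV.

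As background, complexes I and II pass electrons from NADH and succinate to ubiquinone, complex III passes them on to cytochrome c, and complex IV gives them to oxygen. Complexes I, III and IV pump protons, and complex V, the ATP synthase, uses the proton gradient to make ATP. Most subunits are encoded in the nucleus, while a core set of the proton-pumping complexes and of complex V is encoded in mitochondrial DNA and transcribed inside the organelle; complex II is wholly nuclear. In macrophages, inflammatory stimuli are known to shift metabolism from respiration toward glycolysis.

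The cells were mouse bone marrow-derived monocytes from 4 wild-type animals, all cultured with M-CSF, the growth factor that supports the monocyte and macrophage lineage. Cells of each animal received vehicle, PFM037, TNF (tumour necrosis factor, an inflammatory cytokine), or PFM037 and TNF together for 24 h, giving 1 library per animal and treatment and 4 libraries per group. PFM037 is a compound known here only by its code name; the sources used here do not give its dose or target, the TNF dose, or the strain, age and sex of the animals. Poly(A)-selected RNA was sequenced, and library totals ran from 9403232 to 21017905 counts. All 8 monocyte and macrophage markers checked (Lyz2 and Csf1r among them) were above 1 CPM in the mean over libraries, with a summed level of 23043 to 43285 CPM per library. Lyz2 alone had a mean of 27567 CPM, so this sum follows mainly that gene. The cultures also held RNA of 6 neutrophil markers, at 3748 to 11777 CPM in sum, and of 6 mast cell, basophil and eosinophil markers, at 83.2 to 515 CPM, while 6 lymphocyte markers summed to 9.08 to 40.1 CPM and 4 stromal and endothelial markers to 17.9 to 43.9 CPM. No marker was at 0 in all libraries. In such bulk RNA, fewer cells of a type and less RNA per cell cannot be told apart.

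Respiratory chain RNA was abundant, and 3 mitochondrially encoded subunits had the highest levels of all members. Levels are compared between genes as CPM per kb of transcript, as means over the 16 libraries. mt-Co1, the catalytic core of complex IV, stood at 1825 CPM per kb, mt-Cytb, the cytochrome b of complex III, at 1268, and mt-Nd1, a membrane core subunit of complex I, at 1143. mt-Nd6, the subunit encoded on the other strand of mitochondrial DNA, was the lowest of the 7 at 67.0 CPM per kb. The median of the 5 mitochondrial subunits of complex I was 331 CPM per kb, which is the level of mt-Nd4.

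Nuclear levels differed by complex. The median was 66.6 CPM per kb for the 36 nuclear subunits of complex I, 108 for complex II, 127 for complex III, 209 for complex IV and 161 for complex V. The highest nuclear level was that of Atp5b, the catalytic beta subunit of ATP synthase, at 639 CPM per kb, followed by Cox4i1 at 446. Among the succinate dehydrogenase genes, the flavoprotein gene Sdha stood at 90.3 CPM per kb, the iron-sulfur gene Sdhb at 132, and the membrane anchor genes Sdhc at 41.0 and Sdhd at 126. Cyc1, the cytochrome c1 of complex III, had the lowest level among nuclear complex III subunits, 92.7 CPM per kb. The plot of levels by complex shows the mitochondrial and the nuclear genes of each complex side by side.

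**Figure D1:**
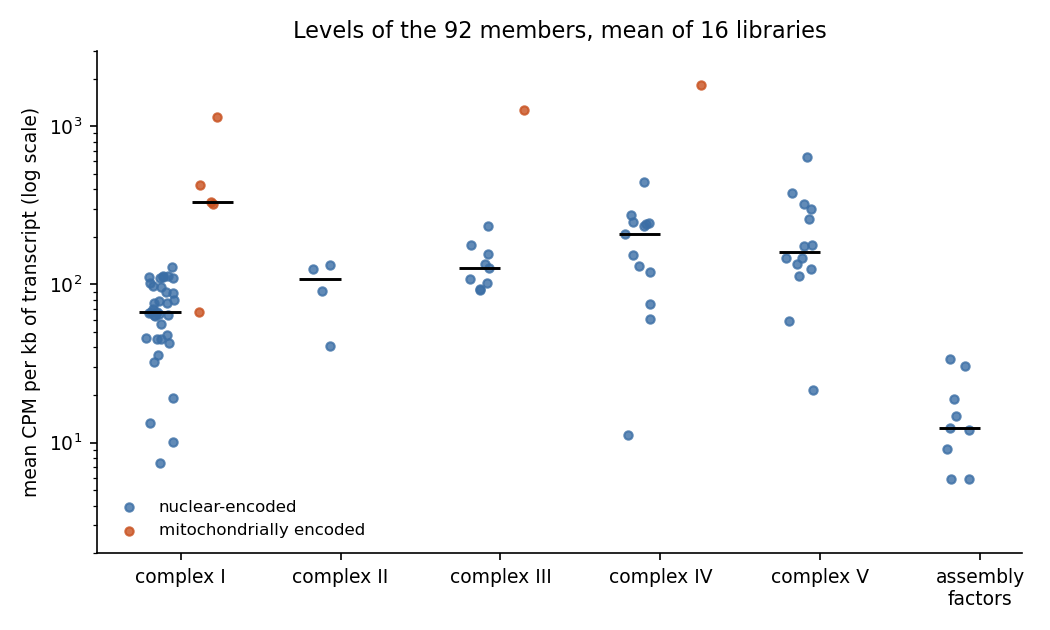
Mean level of each of the 92 members over 16 libraries, in CPM per kb of transcript on a log scale, by complex; blue points are nuclear-encoded, orange points mitochondrially encoded, and black bars are medians. mt-Co1 (1825) and mt-Cytb (1268) lie above every nuclear subunit of complexes IV and III, whereas the assembly factors have the lowest median.

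Where a subunit has tissue-specific versions, the widely expressed version carried nearly all of the signal. Cox4i1 was at 446 CPM per kb and its counterpart Cox4i2, known for its role under low oxygen in lung, at 0.640. Cox6a1 was at 244 CPM per kb against 11.2 for the muscle version Cox6a2, and Cox7a2 at 234 against 2.72 for the muscle version Cox7a1. Cox6b1 was at 275 CPM per kb and the testis version Cox6b2 at 3.79, while Cox8a was at 209 and Cox8b and Cox8c had no counts. Ndufa4, now placed in complex IV, was at 248 CPM per kb and its hypoxia-linked paralogue Ndufa4l2 at 0.155. The 3 genes that encode the same mature c subunit of ATP synthase were at 324 (Atp5g3), 58.5 (Atp5g1) and 21.6 CPM per kb (Atp5g2). Cox5a and Cox5b, which are different subunits despite their names, were at 243 and 60.1 CPM per kb.

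A further 15 genes matched the names but lay under 5 CPM, and many of these were mitochondrial. Just inside the limit were Ndufaf6 (6.45 CPM), Ndufb4 (7.22 CPM) and Cox6a2 (7.72 CPM), and just outside it were Atp5s (4.06 CPM), Cox6b2 (2.13 CPM) and Atp5l (1.39 CPM). Of the 13 mitochondrial genes, mt-Atp8, mt-Co3, mt-Nd3 and mt-Nd4l had no count in any library, mt-Co2 had 2 counts in all 16 together and mt-Atp6 had 3. These genes encode core subunits of complexes I, IV and V. The values describe the table of counts, and whether their RNA was absent from the cells was not tested. Cox7b2 also had no counts.

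The sequences of these genes showed what the low values coincide with. Each transcript was split into all of its 75-base words, the length of the reads, and each word was looked up in the transcripts of all other genes of the GENCODE M21 annotation, on either strand; percentages refer to genes elsewhere in the genome unless an overlapping gene is named. For mt-Co3, 99.86% of words occur in another gene, for mt-Atp6 and mt-Co2 99.51%, for mt-Nd4l 98.65% and for mt-Nd3 97.81%. The main partner of each is 1 of a run of annotated copies on the minus strand of chromosome 1; mt-Co2 also shares 22.6% of its words with Gm13341 on chromosome 2. Of the chromosome 1 copies, Gm28661 is identical to mt-Co2 over 681 of 681 aligned bases, Gm10925 to mt-Atp6 over 678 of 678, Gm28437 to mt-Co3 over 783 of 783 and Gm10222 to mt-Nd4l over 294 of 294, while Gm28438 shares 344 of 345 bases with mt-Nd3. The chromosome 1 copies of these 5 genes held few counts over the 16 libraries, from 11 for Gm10222 to 57 for Gm28438, and Gm13341 held 490 counts. The first 75 bases of mt-Co2 and of its copy are shown, because a read of this length from either place has the same letters; coordinates are GRCm38, sequences from the GENCODE M21 transcripts, and no base is in capitals because none differs.
mt-Co2, chrM:7013-7087, plus strand: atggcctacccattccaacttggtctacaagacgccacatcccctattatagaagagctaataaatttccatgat
Gm28661, chr1:24615491-24615565, minus strand: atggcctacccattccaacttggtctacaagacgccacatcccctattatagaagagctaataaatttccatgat

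Among the genes that did pass the limit, shared words bear on a few values. mt-Nd4 shares 61.5% of its words, mainly with Gm28439, which is identical over 876 of 876 aligned bases, and mt-Co1 shares 39.84%. The levels of mt-Nd4 and mt-Co1, and the sums and medians that hold them, are uncertain for that reason. The words of mt-Cytb, mt-Nd1 and mt-Nd6 occur in no other gene, and those of mt-Nd2 and mt-Nd5 do so for 5.71% and 1.66%. Of the nuclear members, Atp5g2 shares 100% of its words with annotated copies, Cox7c 50.43%, Atp5g1 50.41%, Atp5h 40.29% and Ndufb4 35.23%, and levels of these genes are uncertain for that reason. Leaving out genes that overlap the member's own locus, 64 of the 92 members share no word and 11 share at least 25%. With overlapping genes counted, 53 share no word and 15 share at least 25%. Among other members named below, Ndufs5 shares 27.81% of its words with a gene elsewhere, Ndufa12 22.01%, Cox5b 17.19% and Cox7a2l 15.27%. Uqcr11 shares 3.235%, Ndufb11 2.518% and Atp5j2 1.022%. With an overlapping gene, Ndufa13 shares 25.57%, Ndufb8 9.901%, Cox4i1 8.942%, Ndufb11 5.156% and Ndufs1 4.173%. The overlapping gene lies on the same strand for Ndufb8, whose shared reads cannot be told apart, and on the opposite strand for the others. Reads from opposite strands can be told apart only if strand was used in counting, which is not stated. mt-Atp8 has no count, and none of its words occurs in another annotated transcript. The search did not cover sequence outside annotated transcripts. mt-Atp8 starts between the end of mt-Co2 and the start of mt-Atp6. The chromosome 1 stretch between the copies of those genes was not searched. Whether shared sequence set these low counts was not tested.

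**Figure D2:**
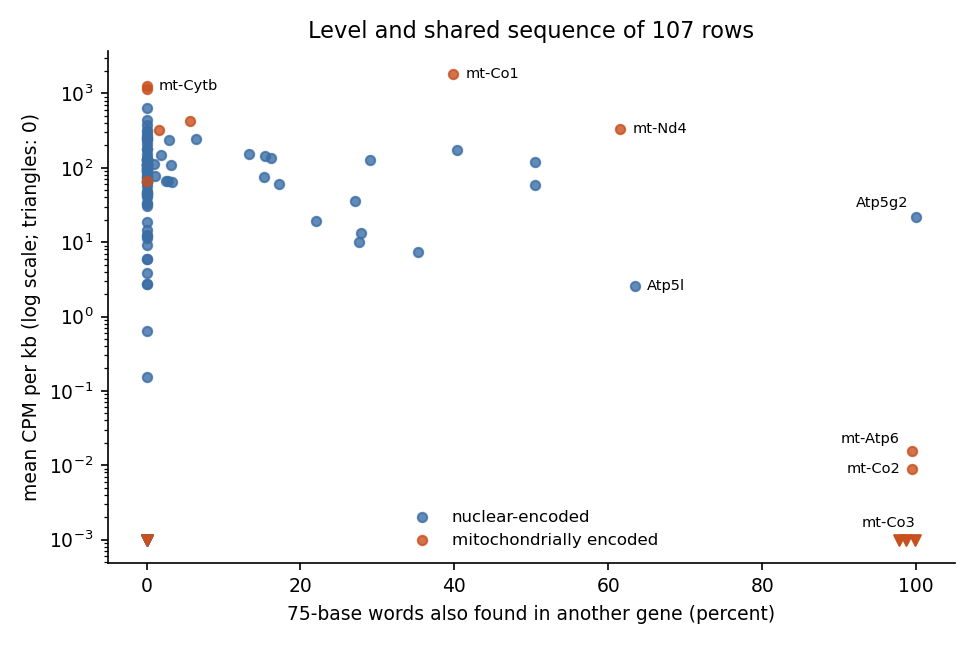
Mean level over 16 libraries, in CPM per kb on a log scale with triangles for genes at 0, against the percent of each gene's 75-base words that occur in an annotated gene elsewhere in the genome, for the 107 genes that match the names. The mitochondrial genes near 100% (mt-Co2, mt-Co3, mt-Atp6 and others) lie at or near 0, while mt-Co1 and mt-Nd4, at 39.84% and 61.5%, lie among the highest.

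Summed over each class, respiratory chain RNA differed more between animals than between treatments. The 85 nuclear members made up 1.13%, 1.10%, 0.824% and 0.835% of the counts of the vehicle libraries of animals 1 to 4. They made up 0.974% ± 0.167 (SD, n = 4) with vehicle, 0.974% ± 0.125 with PFM037, 0.927% ± 0.133 with TNF and 0.889% ± 0.106 with PFM037 and TNF. Every library of animals 1 and 2 lay above every library of animals 3 and 4, whatever the treatment.

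The 7 mitochondrial members made up 0.622% ± 0.147 (SD, n = 4) of counts with vehicle, 0.664% ± 0.128 with PFM037, 0.716% ± 0.267 with TNF and 0.758% ± 0.162 with both. mt-Co1 alone held 40.3% of their sum. The 4 group means lay within the spread between animals.

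Of the 85 nuclear members, 62 had their highest animal mean in animal 1 and 19 in animal 2. The fold between the highest and the lowest animal mean had a median of 1.34 over nuclear and 1.86 over mitochondrial members. The corresponding fold between the highest and lowest treatment mean was 1.16 and 1.24, and it was the smaller of the pair in 75 of 85 nuclear and 7 of 7 mitochondrial members. Cox6a2 had the widest spread, with animal means of 10.6, 11.5, 4.54 and 3.88 CPM, a 2.96-fold range. mt-Nd6 followed with 46.7, 48.7, 26.02 and 17.7 CPM. Cox4i1 was among the most even, with a 1.08-fold range. The mast cell, basophil and eosinophil markers divided the animals the same way, at 267 to 515 CPM in animals 1 and 2 and at 83.2 to 118 CPM in animals 3 and 4. The lymphocyte markers, of which Nkg7 alone had a mean of 12.2 CPM, did so too, at 16.0 to 40.1 CPM and at 9.08 to 13.7 CPM. The other marker lists did not divide the animals this way. The erythroid and megakaryocyte sum was lowest in animal 1, at 175 to 195 CPM, against 292 to 576 CPM in animals 2 to 4. The remaining lists overlapped between the 2 pairs of animals. The part of cell makeup in the difference was not tested.

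The mitochondrial sum divided by the nuclear sum followed no common course over the animals with TNF alone or with PFM037 alone. With vehicle it was 0.733, 0.502, 0.740 and 0.592 in animals 1 to 4, and with TNF it was 0.888, 0.931, 0.678 and 0.523. TNF thus went with a higher ratio in animals 1 and 2 (1.21-fold and 1.85-fold) and a lower one in animals 3 and 4 (0.916-fold and 0.883-fold). With PFM037 alone the ratio was 0.779, 0.599, 0.727 and 0.618, between 0.983-fold and 1.19-fold of vehicle. With PFM037 and TNF it was 0.753, 1.04, 0.877 and 0.736, which is 0.968-fold, 1.73-fold, 1.21-fold and 1.19-fold of PFM037 alone. With both agents the ratio was above that of vehicle in all 4 animals, least so in animal 1, and this was not tested. Animal 2 had the highest fold in both comparisons that add TNF, and its neutrophil marker sum was 10962 CPM with vehicle, 6229 with TNF, 11777 with PFM037 and 9908 with both. The neutrophil sum was lower with TNF than with vehicle in the other animals too. In animals 1, 3 and 4 it was 6311, 5212 and 4536 CPM with vehicle and 4938, 4863 and 3748 with TNF. The mast cell, basophil and eosinophil sum was higher with TNF in animals 1 and 2 and lower in animals 3 and 4. In the presence of PFM037 that sum was higher with TNF in animal 1 alone, where the ratio was lower. The monocyte and macrophage sum, which is mainly Lyz2, was 25638 to 35165 CPM with vehicle and 36001 to 43285 with TNF, without overlap. The part of cell makeup in the ratio was not tested.

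**Figure D3:**
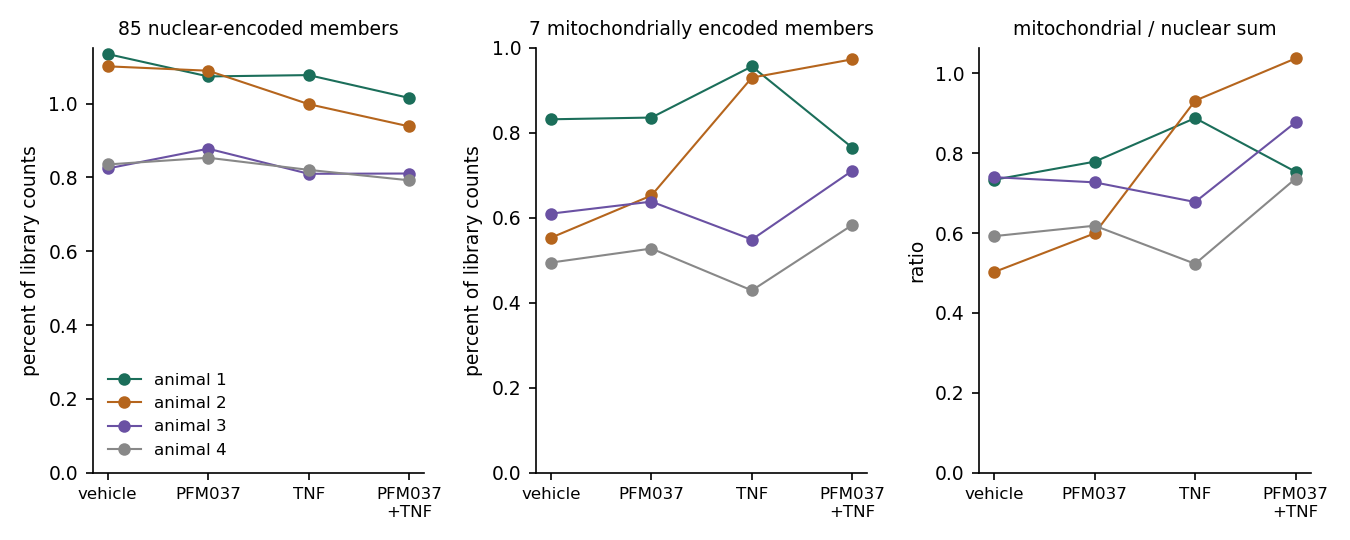
Summed counts of the 85 nuclear members (left) and the 7 mitochondrially encoded members (middle), in percent of each library's counts, and the ratio of the sums (right), by treatment; each line joins the 4 libraries of an animal. The nuclear sums of animals 1 and 2 stay above those of animals 3 and 4, and the ratio of animal 2 goes from 0.502 with vehicle to 0.931 with TNF.

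The first comparison asked what TNF does to these genes. The nuclear members had a median log2 change of -0.04 and the mitochondrial members of 0.26, beside -0.02 over all 13856 genes tested. No member of 92 passed an adjusted p of 0.05 in edgeR's quasi-likelihood test with Benjamini-Hochberg adjustment, where 2.68% of all genes passed (1.8% higher and 0.88% lower). The unadjusted p was under 0.05 for 1 of the 92 members, and DESeq2 and limma-voom also called 0 members. Here and below, shares of all genes for the unadjusted p, DESeq2 and limma-voom are not given unless printed. Such counts therefore cannot be read as low or high for the members. The libraries come in sets of 4 from the same animal, so the test was also made with the animal as a block. It then called 3 members, 2 that rose and 1 that fell, where 19.4% of all genes passed (9.59% higher and 9.84% lower). The 3 called members are 3.26% of the 92, and this difference in shares was not tested. With library size alone in place of TMM scaling, the blocked fit called 1 member higher and 3 lower. This scaling moved all genes by -0.057 (log2) relative to TMM, and its share of all genes called is not given here.

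Ndufb11, an accessory subunit in the membrane arm of complex I whose gene lies on the X chromosome, was the member that fell with TNF. Its level was 77.0, 79.2, 61.2 and 57.7 CPM in the vehicle libraries of animals 1 to 4 and 70.2, 55.7, 46.3 and 47.8 CPM with TNF. It was lower with TNF in all 4 animals, although the groups overlapped because animals 1 and 2 started higher. The log2 change was -0.32 (SE 0.08, adjusted p = 0.00717) with the animal block and -0.32 (SE 0.16, adjusted p = 0.426) without it.

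Ndufs4, an accessory subunit of the matrix arm of complex I, rose with the block. It stood at 86.8, 64.1, 59.1 and 63.6 CPM with vehicle and at 93.5, 76.8, 72.7 and 77.4 CPM with TNF, higher in all 4 animals with groups that overlapped. The log2 change was 0.23 (SE 0.08, adjusted p = 0.0466 with the block and 0.454 without). Ndufaf7, a methyltransferase that acts in complex I assembly, rose as well. It stood at 20.03, 20.997, 22.9 and 21.9 CPM with vehicle and at 26.3, 25.2, 28.9 and 25.2 CPM with TNF. Ndufaf7 was the only member of the 92 whose vehicle and TNF libraries did not overlap, as was so for 8.25% of all genes tested, and its log2 change was 0.30 (SE 0.08, adjusted p = 0.0151 with the block and 0.133 without). The calls of Ndufs4 and Ndufaf7 were each lost when any of 3 animals was left out, in fits that hold fewer libraries. The estimates stayed above 0, at 0.20 to 0.28 for Ndufs4 and 0.27 to 0.34 for Ndufaf7. When each animal was left out of the blocked fit in turn, Ndufs4 was past the threshold only without animal 1 (adjusted p 0.0315 to 0.145 over the animals left out). Ndufaf7 was past it only without animal 4 (0.0370 to 0.0960). Ndufb11 was called with any animal left out, at 0.00787 to 0.0455.

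Other nuclear members at the ends of the range did not pass. Ndufaf8, an assembly factor, had a log2 change of -0.26 and Ndufb4, an accessory subunit of complex I, of 0.28 without the block. Of the 4 succinate dehydrogenase genes, Sdhd was farthest from 0, at 0.14 (SE 0.06, adjusted p = 0.131 with the block). Cyc1 stood at 142.8 CPM ± 38.2 (SD, n = 4) with vehicle and 144 ± 26.9 with TNF. With the block, the 95% interval of the change lay within 1.5-fold either way for 90 of the 92 members (97.8%), compared with 62.1% of all genes.

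The mitochondrial members had higher means with TNF, by amounts smaller than the spread between animals. mt-Co1 was at 3028, 1913, 2865 and 2313 CPM with vehicle and at 3659, 3468, 2796 and 2191 CPM with TNF. mt-Cytb was at 1862, 1291, 1129 and 959 CPM with vehicle and at 2209, 2062, 991 and 784 CPM with TNF. Both were higher with TNF in animals 1 and 2 and lower in animals 3 and 4. The median log2 change of the 7 genes in the 4 animals was 0.30, 0.70, -0.07 and -0.20. The estimates without the block ran from 0.21 for mt-Cytb and mt-Nd6 to 0.30 for mt-Nd5, and none of the 7 passed with or without the block. Without animal 2, the blocked estimates of mt-Cytb, mt-Nd1 and mt-Nd2 turned to -0.060, -0.046 and -0.023.

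The second comparison asked what TNF does in the presence of PFM037. More members were lower: the median log2 change was -0.10 over nuclear members and 0.25 over mitochondrial members, beside -0.01 over all genes. Without the block, 0 of 92 members passed edgeR's test, where 2.25% of all genes passed (1.54% higher and 0.714% lower); 2 members had an unadjusted p under 0.05, and DESeq2 and limma-voom called 0. With the animal block, 9 members fell and 1 rose, where 20.4% of all genes passed (10.6% higher and 9.76% lower). The 10 called members are 10.9% of the 92, below the share of all genes, and this difference was not tested either. With library size alone, the blocked fit called 23 members, all of them lower, and mt-Nd5 was not among them. This scaling moved all genes by -0.068 (log2) relative to TMM in this comparison. Its share of all genes called is not given here, so the 23 calls cannot be read as particular to the members. These libraries are other ones than those of the first comparison, but they come from the same 4 animals.

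Among the members that fell were the complex I subunits Ndufb11, Ndufa13 and Ndufb8, the assembly factor Ndufaf8, the complex III subunit Uqcr11, the complex IV subunit Cox7a2l and the complex V subunits Atp5j2 and Atp5d. Cox7a2l, known as the factor that joins complexes III and IV into supercomplexes, had the smallest adjusted p. It stood at 77.6, 74.0, 103 and 98.7 CPM with PFM037 and at 66.5, 65.1, 75.7 and 77.8 CPM with PFM037 and TNF. It was lower with both agents in all 4 animals, most so in animals 3 and 4, and the groups overlapped. The log2 change was -0.30 (SE 0.06, adjusted p = 0.00254 with the block and 0.380 without). Its change with TNF in the absence of PFM037 was -0.05 (SE 0.06, adjusted p = 0.5997 with the block), and the interaction of the agents was -0.25 (SE 0.09), which did not pass over all genes.

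Ndufb11 stood at 68.9, 83.0, 56.9 and 57.7 CPM with PFM037 and at 59.6, 54.7, 46.5 and 45.2 CPM with both, lower in all 4 animals, with overlap of the groups. Its log2 change was -0.37 (SE 0.08, adjusted p = 0.00307 with the block and 0.328 without). Uqcr11, a small subunit of complex III, stood at 54.5, 66.3, 45.5 and 41.9 CPM with PFM037 and at 49.1, 39.9, 34.2 and 32.7 CPM with both. It was likewise lower in all 4 animals, most in animal 2, with overlap of the groups. Its log2 change was -0.41 (SE 0.10, adjusted p = 0.00701 with the block and 0.381 without). These 3 genes were called with any animal left out, with adjusted p of 0.00308 to 0.0396 for Cox7a2l, 0.00380 to 0.0317 for Ndufb11 and 0.0118 to 0.0422 for Uqcr11.

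The other named calls were lost when particular animals were left out. Ndufa13, an accessory subunit of complex I also known as Grim19, had a log2 change of -0.28 (adjusted p = 0.0204), lost without animal 2, 3 or 4. Ndufaf8 was at -0.41 (adjusted p = 0.0237), lost without animal 1, 2 or 4. Atp5j2, the f subunit of the ATP synthase membrane part, was at -0.26 (0.0228), Ndufb8, an accessory subunit of the complex I membrane arm, at -0.28 (0.0279), and Atp5d, the delta subunit of the ATP synthase stalk, at -0.23 (0.0349). These last 3 were lost without animal 2 or 4.

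**Figure D4:**
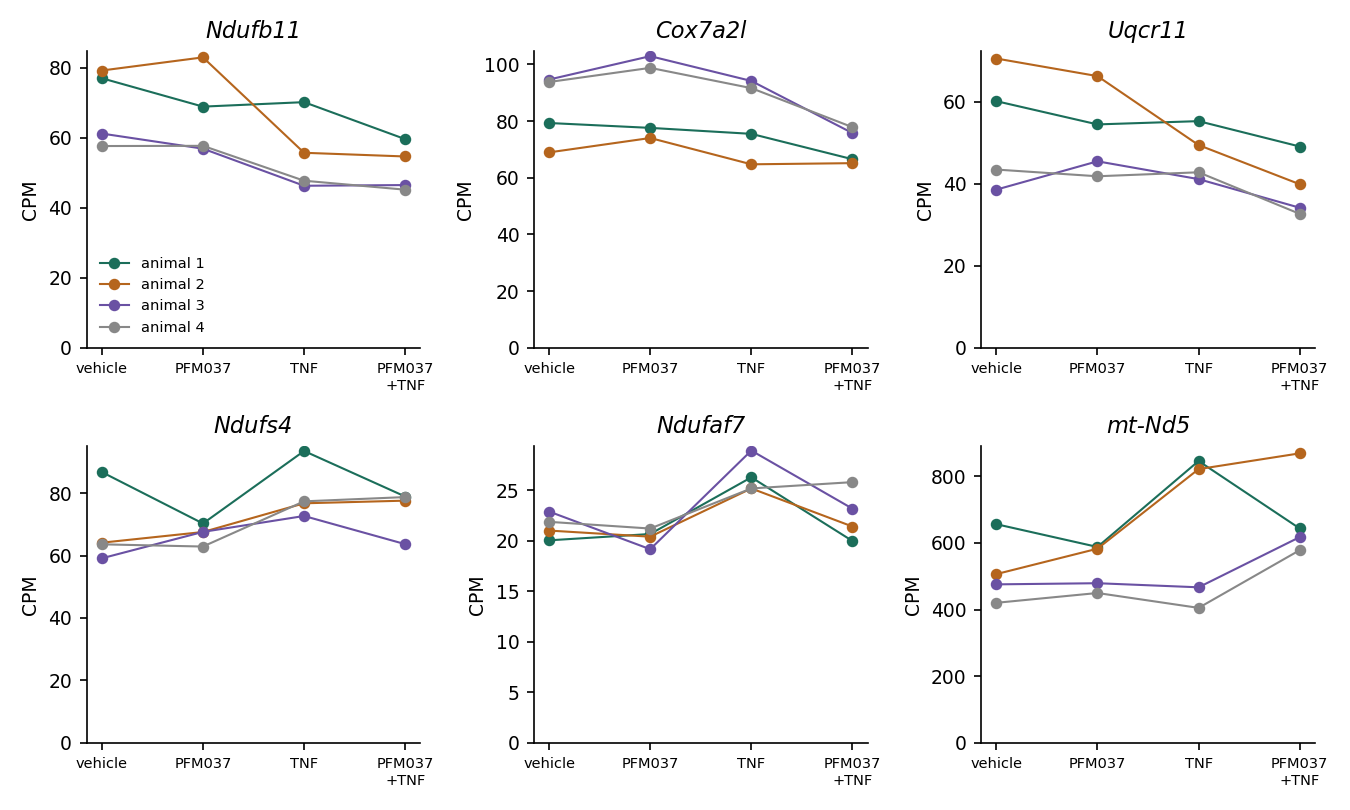
Level in CPM of 6 members called with the animal block, by treatment, from 0 upward; each line joins the 4 libraries of an animal. Ndufb11, Cox7a2l and Uqcr11 are lower with PFM037 and TNF than with PFM037 in each animal, Ndufs4 and Ndufaf7 are higher with TNF than with vehicle in each animal, and mt-Nd5 in animals 1 and 2 reaches 846 and 822 with TNF.

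mt-Nd5, a membrane core subunit of complex I, was the member that rose in the presence of PFM037. It stood at 588, 583, 479 and 449.8 CPM with PFM037 and at 644, 869, 618 and 578 CPM with both agents. It was higher in all 4 animals, most in animal 2, and the groups overlapped. The log2 change was 0.37 (SE 0.13, adjusted p = 0.0481 with the block and 0.525 without), and the call was lost without animal 2, 3 or 4. mt-Nd2 had an estimate of 0.38 (SE 0.17, adjusted p = 0.122 with the block), and mt-Nd1 of 0.33 (SE 0.17, adjusted p = 0.172). mt-Co1 was at 2888, 2183, 2970 and 2435 CPM with PFM037 and at 2892, 3524, 3243 and 2756 CPM with both, for a log2 change of 0.25 (SE 0.14, adjusted p = 0.199 with the block). The medians of the 7 genes in animals 1 to 4 were -0.02, 0.58, 0.26 and 0.30.

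The plot of changes shows the nuclear and the mitochondrial genes side by side. The mitochondrial minus the nuclear median, on the log2 scale without the block, was 0.30 for TNF against vehicle and 0.34 for TNF in the presence of PFM037. The SD of this difference over the 4 animals was 0.464 and 0.318, so the first difference was smaller than the spread between animals and the second little larger than it. It was 0.10 (SD 0.121) for PFM037 against vehicle and 0.20 (SD 0.351) for PFM037 added to TNF. The value of 0.30 for TNF against vehicle ran from 0.13 (without the TNF library of animal 2) to 0.43 (without that of animal 4) when single libraries were left out, and with the block and without animal 2 it was -0.011. The value of 0.20 for PFM037 added to TNF was 0.039 without the TNF library of animal 4. These differences carry no test; mitochondrial genes are known to be read from long shared precursor transcripts and are not independent of each other.

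**Figure D5:**
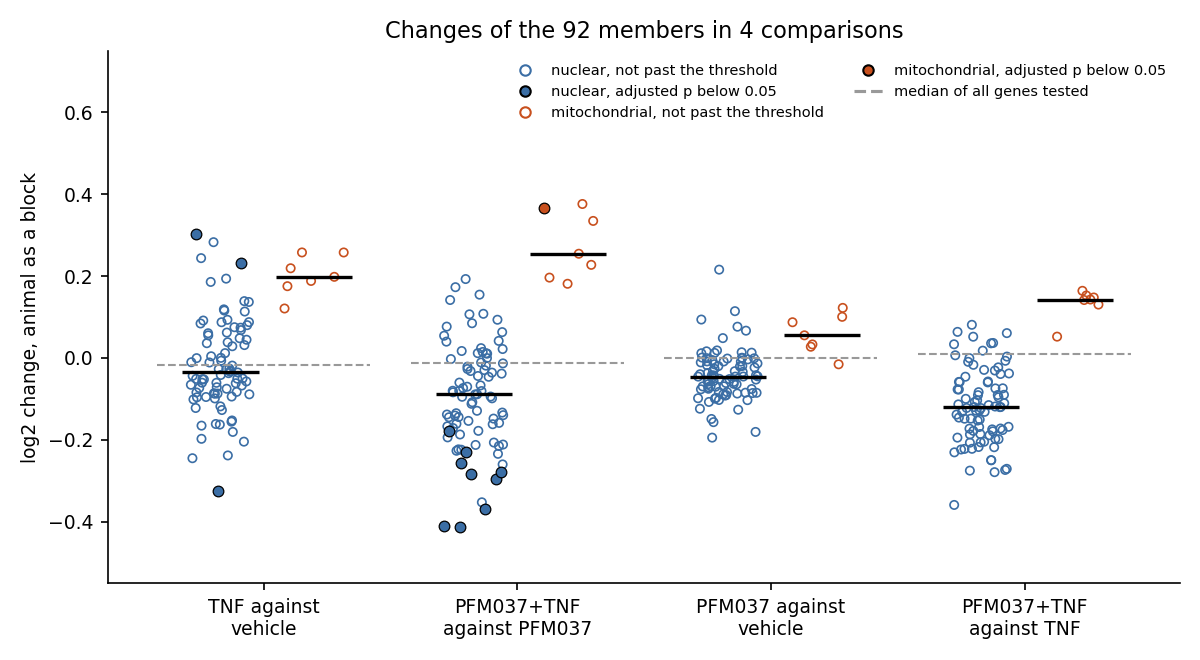
Log2 change of each of the 92 members in 4 comparisons, from the fit with the animal as a block; filled points have an adjusted p under 0.05, black bars are class medians and dashed lines the median of all genes tested. The mitochondrial medians (0.20, 0.25, 0.06 and 0.14 from left to right) lie above the nuclear ones (-0.04, -0.09, -0.05 and -0.12) in each comparison.

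The third comparison asked what PFM037 does without TNF. No member passed: edgeR called 0 of 92 members and 0% of all genes without the block. With the block it called 0 members and 0.0794% of all genes (0.0144% higher and 0.065% lower). No member had an unadjusted p under 0.05 without the block and 1 had one with it, and DESeq2 and limma-voom called 0. The median log2 change was -0.05 over nuclear and 0.05 over mitochondrial members, and 72 of 85 nuclear members lay below 0, against 7013 of the 13856 genes tested. The ends of the nuclear range were Cox5b and Ndufa2, both at -0.19, and Ndufs1, the large iron-sulfur subunit of complex I, at 0.12 and Ndufaf6 at 0.21. Cox5b was at 57.5 CPM ± 12.2 (SD, n = 4) with vehicle and 50.3 ± 10.6 with PFM037. With the block the 95% interval lay within 1.5-fold for 91 of 92 members, so larger changes of those 91 lie outside their intervals.

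The fourth comparison asked what PFM037 adds to TNF. Nuclear subunits were slightly lower with both agents, by a median log2 change of -0.13 against 0.01 over all genes, but no single one passed. edgeR called 0 of 92 members and 0% of all genes without the block, and 0 members and 1.36% of all genes (0.534% higher and 0.83% lower) with it. At an unadjusted p under 0.05 there were 3 members without the block, and with it 24 members (26.1%) compared with 15.4% of all genes. DESeq2 and limma-voom called 0 members. Of the 85 nuclear members 76 lay below 0 without the block, against 6734 of the 13856 genes tested. Of the nuclear members 33 were lower in all 4 animals and 0 were higher in all 4; of all genes 10.7% were lower and 12.2% higher in all 4. Cell type markers also differed in this comparison. The monocyte and macrophage sum, mainly Lyz2, was lower with both agents in all 4 animals, at 34555 to 41074 CPM compared with 36001 to 43285 with TNF. The neutrophil sum was higher in animals 1, 2 and 4, where it was 4938, 6229 and 3748 CPM with TNF and 7208, 9908 and 4557 CPM with both. The mast cell, basophil and eosinophil sum was higher with both agents in all 4 animals. It was 353, 328, 83.2 and 91.7 CPM with TNF and 515, 398, 109 and 105 CPM with both. The remaining lists did not move the same way in all 4 animals. The part of cell makeup in the nuclear medians was not tested.

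In that comparison all 13 nuclear complex IV members had a blocked estimate below 0, with a median of -0.17, and 6603 of the 13856 genes tested lay below 0. Cox4i1, a regulatory subunit of complex IV, stood at 367, 314, 345 and 352 CPM with TNF and at 312, 298, 292 and 289.7 CPM with both. Its 2 groups did not overlap, every library with both agents being lower, and the log2 change was -0.21 (SE 0.07, adjusted p = 0.132 with the block). Nor did Cox4i1 with both agents overlap PFM037 alone, as was so for 9.18% of all genes, at 325, 339.6, 346 and 321 CPM, where its log2 change was -0.16 (SE 0.07, adjusted p = 0.0954 with the block). These comparisons share the libraries with both agents. Besides Cox4i1, Ndufs5 and Ndufs7, a core subunit of complex I, had no overlap between TNF alone and both agents. These 3 of 92 members compare with 2.79% of all genes tested. Ndufs5, an accessory subunit of complex I, had the lowest estimate at -0.37 (SE 0.27 without the block), on a low level of 8.35 CPM ± 0.772 (SD, n = 4) with TNF and 6.48 ± 1.24 with both. Ndufb8 was next at -0.29, and Sdha and Ndufs1 were highest among nuclear members at 0.05 and 0.06.

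The difference between the TNF change with and without PFM037 was tested as an interaction. edgeR called 0 of 92 members and 0% of all genes, without the block and with it, and DESeq2 and limma-voom called 0 members. With the block 1 member had an unadjusted p under 0.05 and without it 0. The ends of the nuclear range without the block were Ndufaf6 at -0.35 and Ndufs5 at -0.31, and Atp5g1 at 0.09 and Ndufa12 at 0.16. The larger number of calls for TNF in the presence of PFM037 (10 members) than in its absence (3 members) is therefore not shown to be a difference by this test.

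The genes of succinate dehydrogenase, the complex with no mitochondrial subunit, varied little. Sdha stood at 258.6 CPM ± 16.0 (SD, n = 4) with vehicle, 258 ± 7.22 with PFM037, 261 ± 22.8 with TNF and 270.01 ± 11.5 with both. Sdhb stood at 154 ± 13.2, 146 ± 4.13, 158 ± 13.5 and 146 ± 6.95 CPM, and Sdhc at 136 ± 12.7, 126 ± 4.296, 136 ± 11.9 and 122 ± 5.97 CPM in the same order. None of the 4 genes passed in any comparison, with blocked SEs of 0.06 to 0.10.

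Promoters of the nuclear members were read from RefSeq (GRCm38.p6), as 250 bases before to 50 after the annotated start. Of the 85 nuclear members 70 had an entry, with 76 entries in all. Letters of motifs known from respiratory chain promoters were searched on both strands. GCATGCG, bound by NRF1, was in 15.8% of member promoters and 3.58% of all 32851 promoters. CCGGAAG, bound by GABP, was in 22.4% and 8.86%, and GATGGCG, bound by YY1, in 18.4% and 3.49%. At least 1 of these was in 46.1% of member promoters and 14.5% of all. TATAAA, the TATA box, was in 6.58% and 13.6%. Median GC content was 58.8% in member promoters and 52.7% in all. The searched letters of the different motifs do not overlap one another in the promoters shown, although GCATGCG is nearly its own reverse complement and can match both strands at 1 place. A match describes letters and not a bound site.

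The promoters of 3 members that fell with TNF in the presence of PFM037 are shown, to set a promoter with NRF1 and GABP letters beside one with GABP and YY1 letters and one with none of these. Capitals mark the matched letters; in Uqcr11 they are CCGGAAG and an overlapping match of the NRF1 letters on both strands, and in Ndufaf8 they are CCGGAAG and then GATGGCG. Each is written on the gene's own strand, 5′ to 3′.
Uqcr11, chr10:80406772-80407071, minus strand: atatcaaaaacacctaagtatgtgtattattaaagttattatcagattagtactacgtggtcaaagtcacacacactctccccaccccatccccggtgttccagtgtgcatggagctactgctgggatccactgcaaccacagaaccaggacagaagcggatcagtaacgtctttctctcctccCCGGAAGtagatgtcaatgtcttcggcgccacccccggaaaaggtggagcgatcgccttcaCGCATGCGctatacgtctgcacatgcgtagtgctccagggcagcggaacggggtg
Ndufaf8, chr11:120098684-120098983, plus strand: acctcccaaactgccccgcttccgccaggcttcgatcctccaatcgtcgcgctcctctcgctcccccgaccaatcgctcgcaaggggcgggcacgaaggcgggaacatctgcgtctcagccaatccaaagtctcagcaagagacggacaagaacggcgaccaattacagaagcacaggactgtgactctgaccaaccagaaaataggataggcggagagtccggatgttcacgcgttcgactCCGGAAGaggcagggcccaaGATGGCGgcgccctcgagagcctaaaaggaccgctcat
Ndufb11, chrX:20617570-20617869, minus strand: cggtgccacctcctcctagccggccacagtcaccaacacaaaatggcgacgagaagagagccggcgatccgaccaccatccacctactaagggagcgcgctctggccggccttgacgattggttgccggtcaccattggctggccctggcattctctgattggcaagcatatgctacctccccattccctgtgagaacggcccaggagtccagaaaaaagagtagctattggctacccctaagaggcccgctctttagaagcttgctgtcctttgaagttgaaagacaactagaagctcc
The blocked log2 changes of these 3 genes in that comparison were -0.41, -0.41 and -0.37 in the order shown.

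Other genes of the pathway were counted from lists, with the animal block and beside the same 19.4% and 20.4% of all genes. Of 77 mitochondrial ribosomal protein genes, which translate the mitochondrial messages, 0 rose and 5 fell with TNF, and 0 rose and 10 fell with TNF in the presence of PFM037. Their median log2 changes were -0.09 and -0.11. Mrps12 fell by 0.35 (SE 0.08, adjusted p = 0.00637) and Mrpl4 by 0.31 (SE 0.08, adjusted p = 0.01003) on the log2 scale with TNF. Of 36 further assembly factors, 1 rose with TNF and 2 rose and 1 fell with TNF in the presence of PFM037. Coa5, which serves complex IV assembly, rose in both, by 0.25 and 0.31, and Uqcc3, which serves complex III assembly, fell by 0.39 in the latter.

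Genes of the tricarboxylic acid cycle and itaconate synthesis held the widest changes among these lists. Of 19 measured, 2 rose and 2 fell with TNF. Acod1, the enzyme that makes itaconate, an inhibitor of succinate dehydrogenase, rose with the block. Its mean was 152 CPM with vehicle and 676 CPM with TNF. The log2 change of Acod1 was 2.64 (SE 0.36, adjusted p = 7.07e-05) in the blocked fit and 2.15 (SE 0.71, adjusted p = 0.152) without the block. Pcx, pyruvate carboxylase, rose from 2.59 to 6.93 CPM (log2 change 1.43, SE 0.26, adjusted p = 0.000783). Idh2, the mitochondrial NADP-dependent isocitrate dehydrogenase, fell by 0.45 and Fh1, fumarase, by 0.26 on the log2 scale. With TNF in the presence of PFM037, Acod1, Pcx, Dld and Dlat rose and Idh2 fell. Cs, citrate synthase, had changes of 0.03 and 0.08 and passed in neither.

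Of 24 genes for mitochondrial transcription, replication and RNA handling, Fastkd1, a regulator of mitochondrial RNA, rose with TNF by 0.53 (SE 0.11, adjusted p = 0.00255). With TNF in the presence of PFM037, Fastkd1 and Pnpt1, a mitochondrial RNA-degrading enzyme, rose and Polg2, the accessory subunit of the mitochondrial DNA polymerase, fell by 0.65. Tfam, which packages mitochondrial DNA and starts its transcription, had changes of -0.09 and -0.04 and Polrmt, the mitochondrial RNA polymerase, of -0.19 and -0.11, and neither passed. Of 9 regulators of mitochondrial biogenesis, Ppargc1b, a coactivator, rose with TNF from 1.63 to 3.17 CPM and Myc fell by 0.44. Ppargc1b also rose with TNF in the presence of PFM037, by 0.79 on the log2 scale, as did Gabpb1, by 0.25. Of 17 genes of cytochrome c, carriers and coupling, Ucp2, a carrier of the inner membrane, fell by 0.27 with TNF, and Atpif1, the inhibitor of ATP synthase, and Etfb, an electron carrier subunit, each fell by 0.36 with TNF in the presence of PFM037. Without the block, the calls on these 6 lists were Fastkd1 (adjusted p = 0.0470) and Pcx (0.0286) with TNF and Polg2 (0.0493) with TNF in the presence of PFM037. The median log2 changes with TNF, and with TNF in the presence of PFM037, were -0.05 and -0.05 over the further assembly factors, 0.03 and -0.01 over the genes of mitochondrial transcription, replication and RNA handling, 0.01 and 0.12 over the regulators of biogenesis, 0.05 and 0.09 over the tricarboxylic acid cycle list, and -0.04 and -0.04 over the cytochrome c and carrier list. No gene of these 6 lists passed for PFM037 against vehicle, for PFM037 added to TNF, or for the interaction.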

How the data were processed

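RNA was taken on spin columns, and 500 ng went into stranded, poly(A)-selected libraries read as single 75-base reads, per the labels' protocols. The authors deposited 1 table of read counts per gene. Per the submitters' processing notes, STAR 2.5.3a, featureCounts and limma were used with mm10 (GRCm38); the sources used here state neither the annotation nor whether strand was used in counting. Without these, overlapping and antisense genes cannot be told apart with certainty.

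The members and the gene lists were chosen with earlier results of these data known. edgeR 4.0.16 in R 4.3.3 was run on the deposited counts of all 16 libraries. Genes were kept by filterByExpr (minimum count 10, minimum total 15), which left 13856 genes and all 92 members; TMM scaling, quasi-likelihood F-tests (two-sided) and Benjamini-Hochberg adjustment over all genes tested followed, with a threshold of 0.05. The model had a mean for each group and no block. The labels put each animal in all 4 groups, and samples of an animal deviated together over all genes (correlation of deviations from group means 0.552 to 0.836), so the fit with the animal as a block is printed beside the results. Over the 92 members alone this correlation ran more widely, from 0.087 to 0.912. A library's closest match in another group was of the same animal in 31 of 48 cases over members, and in 45 of 48 over all genes. Per-library levels are CPM of the library total scaled by TMM. Library totals were 9403232 to 21017905, and members had 29 to 74954 counts in a library. Nothing in the labels beyond the animal tells of separate cultures, so p-values measure the spread between these samples.

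Named genes were members called with or without the block (up to 8 per direction by adjusted p), all mitochondrial members, the Sdh genes and Cyc1, paralogues, the 2 highest and 2 lowest nuclear members per comparison, and genes near the 5 CPM limit; 1 item is not reported here. Cell type markers were 7 lists, of which those not given in the text had summed levels of 30.3 to 66.1 CPM (4 dendritic cell genes) and 175 to 576 CPM (3 of 4 erythroid and megakaryocyte genes in the table). Shared 75-base words are exact matches in GENCODE M21 transcripts. DESeq2 1.42.0 and limma-voom (limma 3.58.1), other scalings and filters, left-out libraries and left-out animals were tried as alternatives; 2 (leaving out members with at least 25% shared words, and the block with DESeq2 size factors) were added after seeing the data. The tests were tried on simulated data first.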

Additional observations from a re-analysis of the deposited data

Results flagged for a closer look

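In 80 groups of 4 libraries, over 20 quantities, 1 held a library whose gap to the nearest of the others exceeded Dixon's 95% critical value for the gap as a share of the group's range; chance alone gives about 1 in 20 such groups. Ndufs4, a complex I subunit, stood at 63.7 CPM in the library with PFM037 and TNF of animal 3, while the others of that group lay between 77.6 and 78.9 CPM, a gap of 0.913 of the range.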

How the results depend on the processing

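Settings without the animal block (library size alone, DESeq2 size factors, DESeq2, limma-voom, other filters, a left-out library, left-out members with shared words) gave 0 called members in all 5 comparisons. With the animal (the replicate number) as a block, 3 members were called for TNF against vehicle and 10 for TNF in the presence of PFM037; with DESeq2 size factors, an alternative chosen after seeing the data, these were 3 and 10. With the block and library size alone they were 4 (1 higher, 3 lower) and 23 (0 higher, 23 lower), without Ndufs4 and mt-Nd5; all genes shifted by at most 0.07 in size (log2) under any scaling. With the block and 1 animal left out, 1 to 2 members were called for TNF against vehicle and 3 to 11 (3, 3, 7 and 11) for TNF in the presence of PFM037. The shares of all genes called under these alternatives are not given here, so these counts have no background beside them. The block changed no other count of members. The mitochondrial minus nuclear median for PFM037 against vehicle ran from 0.012 to 0.22 over left-out libraries, the latter without vehicle of animal 1; it ran from 0.13 to 0.43 for TNF against vehicle, from 0.039 to 0.37 for PFM037 added to TNF and from 0.27 to 0.43 for TNF in the presence of PFM037. With the block and 1 animal left out it ran from -0.011 to 0.39 for TNF against vehicle. Over left-out libraries, mt-Cytb ran from -0.018 to 0.43 and mt-Nd6 from -0.0059 to 0.48 for TNF against vehicle, and mt-Cytb from -0.017 to 0.35 and mt-Nd6 from -0.12 to 0.36 for TNF in the presence of PFM037. With the block and 1 animal left out, mt-Cytb ran from -0.060 to 0.26, mt-Nd1 from -0.046 to 0.37 and mt-Nd2 from -0.023 to 0.38 for TNF against vehicle. The cause was not tested. Among single genes, 574 values under alternatives kept their direction and side of the threshold, 61 passed it and 9 turned direction. The median blocked SE was 0.08 over members.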
